A study of Arabidopsis thaliana with 12 samples.

Results

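The comparison described here is the difference between 2 genotypes of Arabidopsis thaliana in their response to 3 h of chilling. It is the change from 0 h to 3 h in plants that overexpress RDM4, minus the same change in wild type, and it uses 8 of the 12 arrays of the study. RNA came from leaves of 2-week-old seedlings of ecotype Col, pooled over the seedlings of a plate. The wild type (Col WT) and the overexpression plants (35S::RDM4, in the Col background) were sampled at room temperature (0 h) and after 3 h at 4 °C, with 2 arrays in each of these 4 groups. The remaining arrays, taken after 48 h at 4 °C, entered the fit and are used only to follow the genes called at 3 h.

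The 35S promoter drives its transgene in most tissues and at all times, so the overexpression was present before chilling as well as during it. The growth protocol speaks of overexpression lines, and the number of lines behind each array is not stated. The labels call the 2 arrays of a group biological replicates. Nothing says whether these came from separate plates, so the p-values below measure only the spread between these samples. Both genotypes lack a room-temperature array at 3 h, so the time of day and the chilling cannot be told apart within a response. In bulk leaf RNA, fewer cells of a type and less RNA per cell cannot be told apart either.

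RDM4 (also called DMS4) is related to the yeast protein Iwr1, which is needed for the nuclear import of RNA polymerase II. In Arabidopsis it associates with RNA polymerase II and with RNA polymerase V, the enzyme that makes scaffold transcripts in RNA-directed DNA methylation. When leaves are chilled, a first wave of transcription factor genes rises within hours, with the CBF (DREB1) genes at its head, and these switch on COR genes whose products protect membranes and proteins. Salicylate is a defence hormone whose output includes the pathogenesis-related (PR) genes, and it is also known to accumulate in Arabidopsis kept for long in the cold.

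Levels are log2 of the scanner's processed signal minus the 75th percentile of the array, so 0 is the level of that percentile and each unit is a doubling. A gene was called where limma gave an adjusted p below 0.05 for the difference of responses, adjusted by Benjamini-Hochberg over all 20672 genes tested. Errors are standard errors (SE) of the fit with n = 2 arrays per group. A positive difference means that the overexpression plants responded higher: a larger rise, a smaller fall, or a rise against a fall. Between 73.8 and 76.5 % of probes were well above background on these arrays, and replicate arrays correlated at r = 0.9970 to 0.9973 over genes, which are not independent replicates. The 8 arrays lie on 5 slides, none of which holds both genotypes among them. Both overexpression arrays of replicate 2 lie on separate slides, while the other responses were each measured within a slide.

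RDM4 itself (AT2G30280) was far above wild type in every overexpression array. Its level was 0.58 and 0.50 in wild type at 0 h and 0.16 and 0.13 at 3 h. In the overexpression plants it was 6.11 and 5.91 at 0 h and 5.91 and 5.78 at 3 h. The transcript was therefore 44.1-fold higher at 0 h and 51.9-fold higher at 3 h, with no overlap between genotypes. Its difference of responses was 0.24 ± 0.14 and was not called (limma, adjusted p = 0.299). Under quantile normalization it was 0.42 and passed (adjusted p = 0.00407).

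The wild type and the overexpression plants answered 3 h of chilling in much the same way, and the difference between them was a modest one spread over many genes. In wild type 6399 genes rose (31 % of those tested) and 7765 fell (37.6 %). In the overexpression plants 6832 rose (33 %) and 7715 fell (37.3 %). The 2 responses, which share no arrays, correlated at r = 0.914 over genes. Both responses passed for 12072 genes, and 11903 of these went in the same direction in both genotypes.

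The difference itself was called for 1566 genes, 1007 higher in the overexpression plants (4.87 % of genes tested) and 559 lower (2.7 %). The median size of a called difference was 0.38 on the log2 scale. At least a 2-fold difference was reached by 62 of the genes called higher (0.3 % of all genes) and 3 of those called lower (0.0145 %). The counts depend on single arrays. They were 657 without wild type 0 h replicate 1, 548 and 578 without wild type 3 h replicate 1 or 2, 934 and 567 without overexpression 0 h replicate 1 or 2, and 547 without overexpression 3 h replicate 2. With slide as a fixed block, which leaves 2 residual degrees of freedom, 160 genes passed. Scaling to the array median in place of the 75th percentile kept the total at 1621 but changed the split, with 42.6 % of calls higher against 64.3 %.

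**Figure D1:**
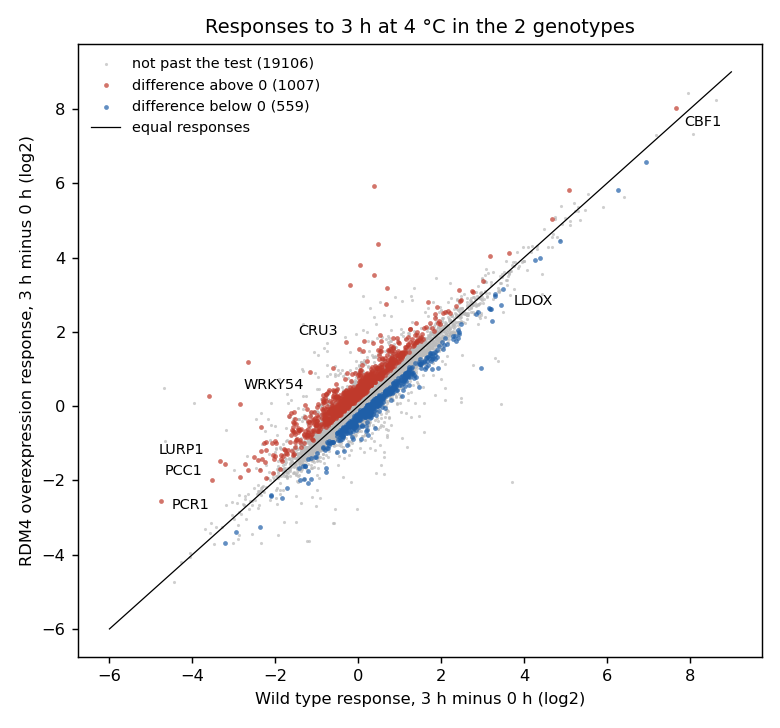
Each point is 1 of 20672 genes, with its mean response to 3 h at 4 °C in wild type on the x axis and in the RDM4 overexpression plants on the y axis (both log2, n = 2 arrays per group); the line marks equal responses. The 1007 genes called higher (red) and 559 called lower (blue) lie in a narrow band along the line, with most of the far outliers above it.

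Most genes called higher (702 of 1007) passed for a genotype difference at 0 h and not at 3 h. Among the genes called lower it was 269 of 559. The difference of responses equals the genotype difference at 3 h minus that at 0 h, so the times can be read from the same arrays. Because those arrays also made the calls, an offset at 0 h opposite to the called difference is partly built in. A gene that did not pass at 3 h need not be equal in the 2 genotypes there. Of all genes tested, 1007 were higher in the overexpression plants at 0 h (4.87 %) and 1700 lower (8.22 %). At 3 h 486 were higher (2.35 %) and 561 lower (2.71 %). No slide holds both genotypes among the 8 arrays, so genotype and slide cannot be told apart within them. The totals were 2707 at 0 h and 1047 at 3 h. With slide as a fixed block they were 108 and 47, and with normexp background correction 1261 and 17. The 1007 genes called higher for the difference of responses lay below wild type at 0 h, by a median of -0.32, and close to it at 3 h, at 0.10. The 559 called lower lay above wild type at 0 h, by a median of 0.19, and below it at 3 h, at -0.15. Over all genes these medians were -0.01 at both times. The counts at a single time rest on single arrays too. At 3 h, 103 and 93 genes differed without wild type replicate 1 or 2 of that time, and 30 without overexpression replicate 2. At 0 h, 1164 and 1804 differed without wild type replicate 1 or 2 of that time, and 1273 and 1227 without overexpression replicate 1 or 2. Leaving out an array of the other time also lowered the count at 3 h, to 606 for either wild type and 527 for either overexpression array.

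Of the 1566 called genes, 971 differed between genotypes at 0 h alone, 253 at 3 h alone, 106 at both times and 236 at neither by the same threshold. Among those called higher, 702 differed at 0 h alone. In 290 of these the overexpression plants rose more from a lower start, in 189 they fell less, and in 223 the mean responses had opposite signs. Among those called lower, 269 differed at 0 h alone and 130 at 3 h alone. These classes describe where the difference sat and were not tested against each other.

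**Figure D2:**
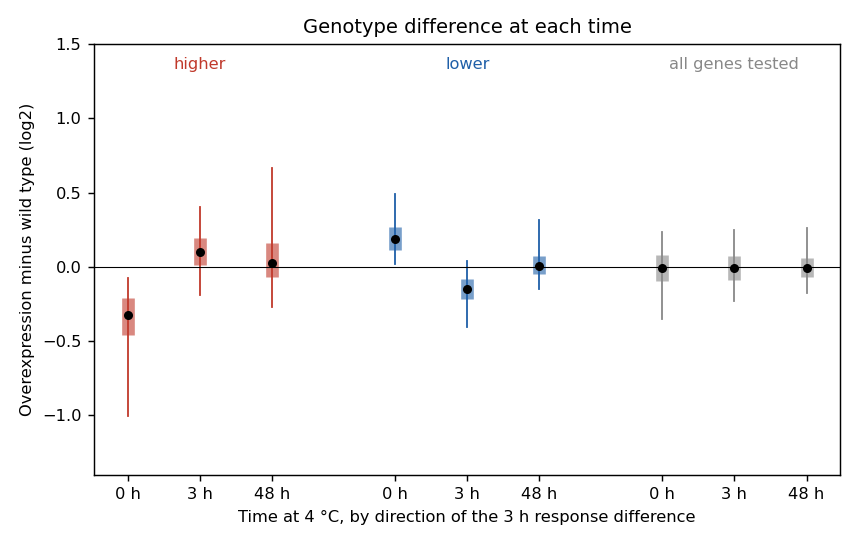
Overexpression minus wild type (log2) at 0 h, 3 h and 48 h for the 1007 genes called higher, the 559 called lower and all 20672 genes tested; dots are medians, thick bars run from the 25th to the 75th percentile and thin lines leave out the lowest and highest 5 % of genes. The genes called higher start at a median of -0.32 and reach 0.10 at 3 h and 0.03 at 48 h.

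At 48 h, a time that the difference of responses does not use, the called genes differed between genotypes in both directions. Over all genes 535 were higher in the overexpression plants at 48 h (2.59 %) and 236 lower (1.14 %). Of the 1007 genes called higher, 162 were above wild type at 48 h (16.1 %) and 68 below (6.75 %). Of the 559 called lower, 44 were above (7.87 %) and 13 below (2.33 %). The median genotype difference at 48 h was 0.03 and 0.00 for these groups, although some leading genes lay far apart. LURP1 was 1.43 higher in the overexpression plants at 48 h, PCC1 1.54 and PR2 (BGL2) 1.62. The fit shares its variance estimates over the times.

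Genes of salicylate signalling and pathogen defence fell less, or rose more, in the overexpression plants. Of 28 members tested, 17 were called higher and 0 lower (60.7 %, against 7.58 % of all genes). The median difference was 0.41 against 0 over all genes. At an unadjusted p below 0.05, 23 were higher and 0 lower, where this threshold takes 26.9 % of all genes (14.6 % higher and 12.3 % lower). In wild type 16 of the 28 fell and 6 rose in the first 3 h (median response -0.37), and in the overexpression plants 12 fell and 12 rose (median 0.00). The starting levels differed: 21 of the 28 were lower in the overexpression plants at 0 h, by a median of -0.52, and 1 was higher and 2 lower at 3 h. The number called was 13 to 15 when 1 array was left out, 11 with normexp background correction or the deposited value table, and 7 with slide as a fixed block.

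The 4 largest called differences on the list were those of PCC1, PR2, WRKY54 and DLO1. PR2 (BGL2, AT3G57260), a secreted beta-1,3-glucanase, stood at 1.05 and 0.93 in wild type at 0 h and at -1.71 and -1.79 at 3 h. In the overexpression plants it stood at 0.41 and 0.43 at 0 h and at -1.156 and -1.099 at 3 h. The overexpression arrays were below wild type before chilling and above it after 3 h, without overlap at either time. The fall was 6.69-fold in wild type and 2.92-fold in the overexpression plants, a difference of 1.196 ± 0.07 (limma, adjusted p = 1.98e-04).

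PCC1 (AT3G22231), a small membrane-associated protein linked to defence and flowering, was at 2.05 and 2.25 in wild type at 0 h and at -1.46 and -1.30 at 3 h. In the overexpression plants it was at 0.29 and 0.51 at 0 h and at -1.56 and -1.62 at 3 h. It started lower in the overexpression plants and ended at a similar level in both genotypes, so its fall was smaller by 1.54 ± 0.17 (adjusted p = 0.00282). WRKY54 (AT2G40750), a transcription factor that acts with WRKY70 in salicylate responses, went in opposite directions. It fell from -2.42 and -2.39 to -3.25 and -3.24 in wild type and rose from -3.71 and -3.79 to -3.42 and -3.48 in the overexpression plants. That difference was 1.15 ± 0.06 (adjusted p = 1.88e-04). DLO1 (AT4G10500), a salicylate hydroxylase, fell by 1.55 in wild type and by 0.46 in the overexpression plants, a difference of 1.099 ± 0.06 (adjusted p = 1.98e-04). All 4 were called under every setting tried, including each single-array omission and slide as a fixed block.

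ICS1, EDS1, PAD4 and NPR1 are among the genes that make salicylate or stand at the head of its signalling. They were chosen for mention by their role, after values were seen, and were not called. The difference was -0.31 for ICS1, the enzyme of the main synthesis route, 0.17 for EDS1 and 0.05 for PAD4, which form a signalling complex, and 0.24 for NPR1, a salicylate receptor. Of a gene with several probes the brightest is given, and the probes of EDS1 ran from 0.17 to 0.85.

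**Figure D3:**
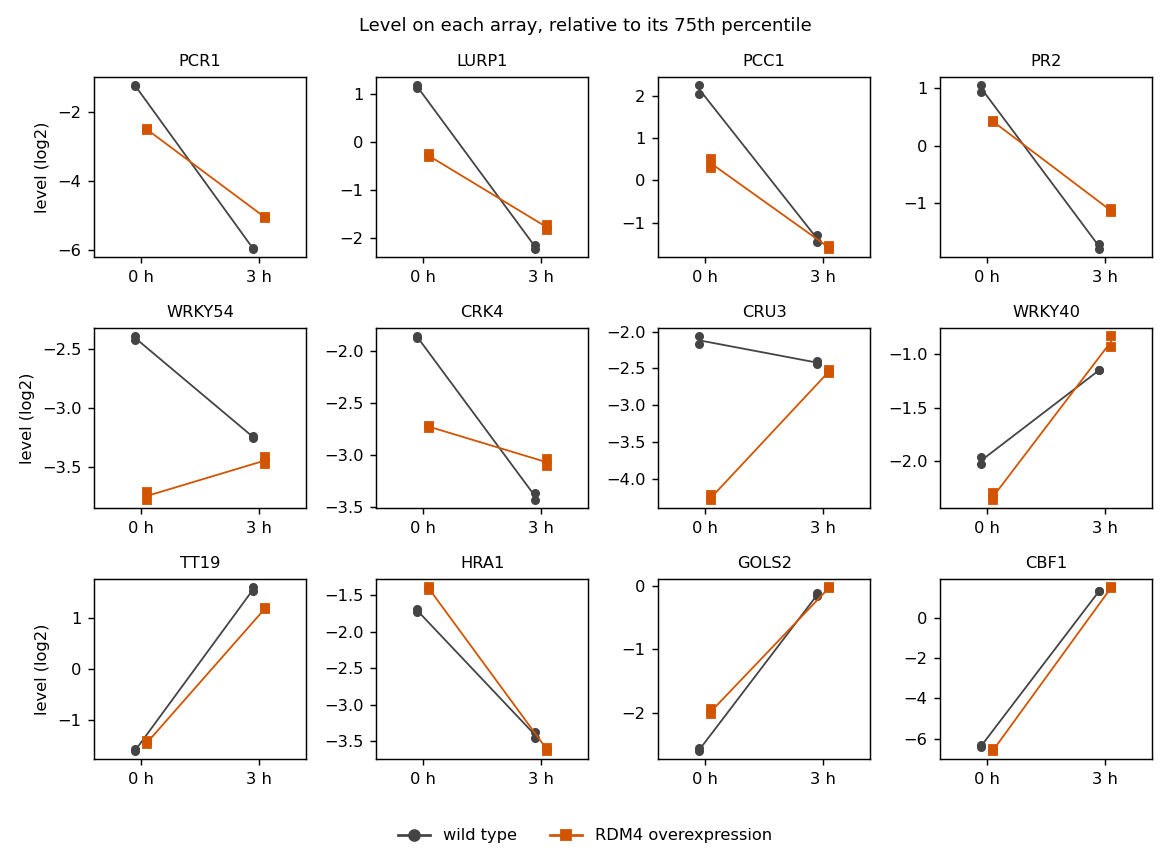
Level (log2 relative to the array's 75th percentile) of 12 genes on each of the 8 arrays; circles are wild type, squares RDM4 overexpression, and lines join the group means at 0 h and 3 h. For PCR1, LURP1, PR2 and CRK4 the lines cross, with the overexpression arrays below wild type at 0 h and above it at 3 h.

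Among the genes with the largest called differences outside that list, several are known from defence. PCR1 (AT1G14880), a small membrane protein of the plant cadmium resistance family, stood at -1.23 and -1.21 in wild type at 0 h and at -5.96 and -5.99 at 3 h. Under RDM4 overexpression it was at -2.52 and -2.47 at 0 h and at -5.08 and -5.05 at 3 h. Its fall was 27.0-fold in wild type and 5.91-fold in the overexpression plants, and the difference was 2.19 ± 0.06 (adjusted p = 8.60e-06). At 48 h its level was above wild type by 2.31 (adjusted p = 1.69e-07).

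LURP1 (AT2G14560), named for late upregulation after infection by Hyaloperonospora, fell from 1.12 and 1.18 to -2.24 and -2.14 in wild type. Under RDM4 overexpression it fell from -0.26 and -0.33 to -1.83 and -1.74. The groups did not overlap at either time, and the order of the genotypes turned between them; the difference was 1.85 ± 0.10 (adjusted p = 1.98e-04). BG3 (AT3G57240), a beta-1,3-glucanase of the same family as PR2, differed by 1.64 ± 0.14 (adjusted p = 9.01e-04). ACD6 (AT4G14400), an ankyrin-repeat membrane protein that promotes salicylate-dependent defence, fell by 1.68 in wild type and by 0.25 in the overexpression plants, a difference of 1.42 ± 0.12 (adjusted p = 0.00106). The probes of ACD6 ran from 1.06 to 1.42. PNP-A (AT2G18660), a secreted natriuretic peptide-like protein, differed by 1.29 ± 0.17 (adjusted p = 0.00636). These 5 genes were called in all 8 fits that left out 1 array.

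Receptor kinases and early immune genes showed the same pattern in part. Of 22 members tested, 7 were called higher and 0 lower (31.8 %, against 7.58 % of all genes), with a median difference of 0.24. At an unadjusted p below 0.05, 12 were higher and 0 lower. At 0 h 12 were lower in the overexpression plants, and at 3 h 1 was higher and 2 were lower. The largest called difference was that of CRK4 (AT3G45860), a cysteine-rich receptor-like kinase. It fell from -1.87 and -1.86 to -3.43 and -3.36 in wild type and from -2.72 and -2.73 to -3.10 and -3.04 in the overexpression plants. The fall was 2.88-fold against 1.27-fold, and the difference was 1.19 ± 0.06 (adjusted p = 1.88e-04). CRK6 (AT4G23140), of the same kinase family, differed by 0.80 ± 0.07 (adjusted p = 9.01e-04). WAK1 (AT1G21250), a wall-associated kinase, differed by 0.65 ± 0.06 (adjusted p = 0.00171). CRK36 (AT4G04490) differed by 0.74 ± 0.14 (adjusted p = 0.0208) and was called without overexpression 0 h replicate 1 or either overexpression 3 h array, and lost in the other 5 fits (range over the 8 omissions 0.60 to 0.89). FLS2, BAK1 and BIK1, the flagellin receptor, its co-receptor and their cytoplasmic kinase, had differences of -0.15, 0.22 and -0.15 and were not called. The count was 4 to 6 with 1 array left out; it was 4 without wild type 0 h replicate 1 or either wild type 3 h array, and the fit without wild type 3 h replicate 1 also called 1 member lower. It was 3 with normexp, 4 with the deposited value table and 2 with slide as a fixed block.

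The early cold transcription factors outside the CBF family also responded more in the overexpression plants. Of 21 tested, 10 were called higher and 0 lower (47.6 %, against 7.58 % of all genes), with a median difference of 0.31. At an unadjusted p below 0.05, 14 were higher and 0 lower. All 21 rose in both genotypes, by a median of 1.55 in wild type and 1.94 in the overexpression plants, and 10 started lower in the overexpression plants at 0 h. At 3 h 5 were above wild type. WRKY40 (AT1G80840), a repressor in defence and abscisic acid signalling, rose from -1.95 and -2.02 to -1.15 and -1.15 in wild type and from -2.36 and -2.29 to -0.93 and -0.84 in the overexpression plants. It was the lower of the pair before chilling and the higher after it, with a difference of 0.60 ± 0.07 (adjusted p = 0.00436). ZAT10 (STZ, AT1G27730), a zinc finger repressor, rose from -1.02 and -1.07 to 2.65 and 2.55 in wild type and from -1.45 and -1.54 to 2.63 and 2.60 in the overexpression plants. Here the genotypes met at 3 h, and the difference was 0.46 ± 0.07 (adjusted p = 0.0107). Both were called in all 8 single-array omissions.

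ZAT12 (RHL41, AT5G59820) differed by 0.47 ± 0.11 (adjusted p = 0.0396) but was called in only 1 of those 8 fits, the one without wild type 0 h replicate 2 (range 0.37 to 0.56). CRF3 (AT5G53290), a cytokinin response factor, differed by 0.43 ± 0.09 (adjusted p = 0.0287) and was called without overexpression 0 h replicate 1 or overexpression 3 h replicate 1 alone (range 0.34 to 0.52). The number of factors called fell to 4 without wild type 0 h replicate 1, wild type 3 h replicate 1, overexpression 0 h replicate 2 or overexpression 3 h replicate 2, to 5 without wild type 3 h replicate 2 and to 6 without overexpression 0 h replicate 1. It was 3 with normexp, 6 with the deposited value table and 0 of 21 with slide as a fixed block. The median difference stayed between 0.25 and 0.33 under all settings tried.

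In the CBF pathway single genes were called in both directions, while the median of the regulon lay near 0. Of the 5 CBF/DREB1 genes tested, 1 was called, and of 20 regulon genes 5 (25 %), against 7.58 % of all genes. CBF1 (AT4G25490) rose from -6.38 and -6.28 to 1.32 and 1.34 in wild type and from -6.61 and -6.49 to 1.48 and 1.49 in the overexpression plants. Its difference was 0.38 ± 0.07 (adjusted p = 0.0188) beside a rise of 202-fold in wild type and 263-fold in the overexpression plants. The call was lost without either wild type 3 h array and without overexpression 3 h replicate 2 (0.32 to 0.44 over the omissions). It was also lost with normexp, quantile normalization, the deposited value table and slide as a fixed block (0.33 to 0.67 over these and the other settings). CBF2 (AT4G25470) had a difference of -0.75 ± 0.43 (adjusted p = 0.302), with overexpression levels of -3.99 and -2.78 at 0 h. That spread decides its value: it was -1.36 and passed without overexpression 0 h replicate 1 (adjusted p = 0.00281), and it was -0.14 at the other end of the omissions. CBF3 (DREB1A, AT4G25480) had a difference of -0.39 ± 0.19 (adjusted p = 0.234), which passed at -0.62 without overexpression 3 h replicate 1 (adjusted p = 0.0309).

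Of 20 genes of the CBF regulon and cold-regulated effectors, 3 were called higher and 2 lower, with a median difference of -0.01. COR15A, a chloroplast stroma protein that protects membranes, had a difference of -0.05 ± 0.12 (adjusted p = 0.835). The values were 0.01 ± 0.31 for the dehydrin COR47, 0.07 ± 0.17 for RD29A (LTI78) and 0.02 ± 0.20 for KIN1, none of which was called (adjusted p = 0.991, 0.833 and 0.963). The lower calls were those of galactinol synthases, which start raffinose synthesis. GOLS2 (AT1G56600) rose from -2.60 and -2.55 to -0.12 and -0.16 in wild type and from -2.00 and -1.94 to -0.04 and -0.03 in the overexpression plants. It began higher in the overexpression plants and ended near wild type, so its rise was smaller by 0.49 ± 0.05 (difference -0.49, adjusted p = 0.00284). GOLS3 (AT1G09350) differed by -0.39 ± 0.06 (adjusted p = 0.0107), and both were called in all 8 single-array omissions. RD29B (LTI65, AT5G52300), an abscisic acid-responsive gene, differed by 0.63 ± 0.13 (adjusted p = 0.0254) and was called in 2 of the 8 omissions. Those were the fits without overexpression 0 h replicate 1 or overexpression 3 h replicate 1 (range 0.50 to 0.76). XERO2 (LTI30, AT3G50970) differed by 0.38 ± 0.09 (adjusted p = 0.0453) and was called in none of them (0.31 to 0.45). With normexp background correction, the deposited value table or slide as a fixed block, 0 of the 20 were called (limma; 6 of 20 at an unadjusted p below 0.05 in the main setting). The lower calls stayed at 2 in every omission, and the higher calls were 1 without wild type 0 h replicate 1 or either replicate 1 array of the overexpression plants and 0 in the other 5.

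Genes of low oxygen metabolism moved the other way. Of 15 tested, 8 were called lower and 0 higher (53.3 %, against 7.58 % of all genes), with a median difference of -0.36. At an unadjusted p below 0.05, 9 were lower and 1 higher. In wild type 10 of the 15 fell (median response -0.38) and in the overexpression plants 9 fell (median -0.81). At 0 h 8 of the 15 were higher in the overexpression plants and 1 lower, with a median genotype difference of 0.28. At 3 h 0 were higher and 1 lower, with a median of 0.01. HRA1 (AT3G10040), a trihelix factor that limits the low oxygen response, fell from -1.72 and -1.69 to -3.46 and -3.38 in wild type and from -1.43 and -1.39 to -3.59 and -3.64 in the overexpression plants. The genotypes did not overlap at either time, and their order turned; the difference was -0.49 ± 0.06 (adjusted p = 0.00431). HB1 (AT2G16060), a phytoglobin, fell from 0.86 and 0.75 to 0.33 and 0.28 in wild type and from 1.12 and 1.18 to 0.26 and 0.22 in the overexpression plants, a difference of -0.41 ± 0.06 (adjusted p = 0.0107). Both were called in all 8 single-array omissions.

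ADH1 (AT1G77120), alcohol dehydrogenase, rose by 0.46 in wild type, and its response of 0.01 in the overexpression plants did not pass the test (adjusted p = 0.843). Its difference was -0.45 ± 0.08 (adjusted p = 0.0210), with a call in only 1 omission, that of overexpression 3 h replicate 1 (range -0.47 to -0.42); its probes ran from -0.50 to -0.14. The list kept 8 calls without that array and 5 without wild type 0 h replicate 1. It had 4 without wild type 0 h replicate 2, wild type 3 h replicate 2 or overexpression 0 h replicate 2, 3 without overexpression 0 h replicate 1, and 2 without wild type 3 h replicate 1 or overexpression 3 h replicate 2. It had 2 with normexp or the deposited value table and 0 with slide as a fixed block, and the median stayed between -0.41 and -0.25 under all settings tried.

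Flavonoid and anthocyanin genes rose strongly in both genotypes and some of them less in the overexpression plants. Of 23 tested, 7 were called lower and 0 higher (30.4 %, against 7.58 % of all genes). At an unadjusted p below 0.05, 11 were lower and 0 higher. The median difference was -0.21, with median rises of 2.37 in wild type and 2.11 in the overexpression plants. The called genes named here act late in the pathway. TT19 (GSTF12, AT5G17220), the glutathione transferase that carries anthocyanins to the vacuole, rose from -1.57 and -1.61 to 1.61 and 1.53 in wild type and from -1.47 and -1.41 to 1.195 and 1.19 in the overexpression plants. The genotypes differed little at 0 h and were apart at 3 h; the difference was -0.53 ± 0.05 (adjusted p = 0.00236). UGT78D1 (AT1G30530), a flavonol rhamnosyltransferase, differed by -0.45 ± 0.07 (adjusted p = 0.0117). Both were called in all 8 single-array omissions. LDOX (AT4G22880), leucoanthocyanidin dioxygenase, differed by -0.34 ± 0.08 (adjusted p = 0.0401) and was called only without overexpression 3 h replicate 1 (range -0.40 to -0.28). The enzymes of the first steps, CHS, CHI and F3H, were named by their role with values known. They had differences of 0.05, -0.01 and 0.06 and were not called. Leaving out 1 array left 2 to 4 calls, 4 of them without overexpression 3 h replicate 1, 3 without overexpression 0 h replicate 2 and 2 in each other fit. Normexp left 2 calls and a median of -0.07, the deposited value table also left 2 calls, and slide as a fixed block left 1.

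Jasmonate genes were called in both directions, 5 higher and 4 lower of 28 tested (32.1 %, against 7.58 % of all genes). The enzymes that oxidise the active hormone jasmonoyl-isoleucine were among those higher. CYP94B3 (AT3G48520) was at -2.77 and -2.80 in wild type at 0 h and at -2.74 and -2.74 at 3 h, a response that did not pass the test, and rose from -3.18 and -3.26 to -2.37 and -2.42 in the overexpression plants. It was below wild type at 0 h and above it at 3 h, a difference of 0.78 ± 0.10 (adjusted p = 0.00486). CYP94C1 (AT2G27690) differed by 0.55 ± 0.07 (adjusted p = 0.00605). MYC2 (AT1G32640), the main transcription factor of the pathway, differed by 0.43 ± 0.05 (adjusted p = 0.00528). These 3 were called in all 8 single-array omissions. The sulfotransferase gene ST2A (AT5G07010) differed by 0.78 ± 0.18 (adjusted p = 0.0369) and was called only without wild type 0 h replicate 2 (range 0.66 to 0.90). With 1 array left out 4 members were called higher without wild type 0 h replicate 2 or overexpression 0 h replicate 1, and 3 in the other fits. The lower calls went to 0 without wild type 0 h replicate 1, either wild type 3 h array, overexpression 0 h replicate 2 or overexpression 3 h replicate 2, and to 1 in the other fits. Higher and lower calls were 2 and 1 with normexp, 2 and 2 with the deposited value table, 3 and 1 without the filter on dim probes and 0 with slide as a fixed block.

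Several nutrient genes were called, though none of those named here kept its call with slide as a fixed block. SPX3 (AT2G45130), an SPX-domain protein of phosphate signalling, fell from -2.15 and -2.17 to -2.80 and -2.72 in wild type and rose from -3.14 and -3.06 to -2.70 and -2.64 in the overexpression plants. The overexpression plants stood at -0.94 relative to wild type at 0 h and at 0.09 at 3 h, and the difference was 1.03 ± 0.09 (adjusted p = 0.00125). MGD3 (MGDC, AT2G11810), a galactolipid synthase induced by phosphate shortage, differed by 0.38 ± 0.05 (adjusted p = 0.00731). Of 21 nitrate and phosphate genes, 5 were called higher and 0 lower (23.8 %, against 7.58 % of all genes). The count was 6 without wild type 0 h replicate 2, 3 without wild type 3 h replicate 1, overexpression 0 h replicate 1 or overexpression 3 h replicate 1, and 2 in each other omission. It was 2 with normexp, 3 with the deposited value table or median scaling and 0 with slide as a fixed block.

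Of 23 iron genes, IRT1 and FRO2 were called higher and FER4 lower (13 %, against 7.58 % of all genes). FER4 (AT2G40300) differed by -0.34 ± 0.07 (limma, adjusted p = 0.0341). Its call was lost with normexp, quantile normalization, the deposited value table, the 8 arrays alone or slide as a fixed block, and without the filter on dim probes. It was also lost in most single-array omissions (range -0.42 to -0.26), and the probes of FER4 ran from -0.34 to -0.12. IRT1 (AT4G19690), the main iron transporter of the root epidermis, rose from -3.64 and -3.65 to -1.81 and -1.80 in wild type. In the overexpression plants it rose from -3.52 and -3.66 to -1.19 and -1.22. It belongs to the few that differed at 3 h and not at 0 h, by 0.60 at 3 h (adjusted p = 0.00291) against 0.06 at 0 h. The difference of responses was 0.54 ± 0.07 (adjusted p = 0.00521). SPX3, MGD3 and IRT1 were called in all 8 single-array omissions. The partner of IRT1 in iron uptake, the ferric reductase gene FRO2 (AT1G01580), differed by 0.77 ± 0.13 (adjusted p = 0.0149). That call was lost without either wild type 3 h array, overexpression 0 h replicate 2 or overexpression 3 h replicate 2 (range 0.69 to 0.85).

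Genes that respond to darkness and sugar shortage were split, with 2 called higher and 2 lower of 18 (22.2 %). Over all genes 7.58 % were called. DIN11 (AT3G49620), a dioxygenase, fell from -1.06 and -1.09 to -3.41 and -3.49 in wild type and further in the overexpression plants, from -1.33 and -1.34 to -4.54 and -4.63. It was below wild type at both times, and the gap grew by 0.88 ± 0.07 (difference -0.88, adjusted p = 8.31e-04). DIN2 (AT3G60140), a beta-glucosidase, fell by 1.19 in wild type and by 0.42 in the overexpression plants, a difference of 0.77 ± 0.07 (adjusted p = 0.00123). Both were called under every setting tried. SAG29 (SWEET15, AT5G13170), a sucrose transporter, rose by 1.77 in wild type and 1.27 in the overexpression plants, a difference of -0.51 ± 0.05 (adjusted p = 0.00164) that held in all 8 omissions.

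Among the other genes called lower, scpl10 (AT2G23000), a serine carboxypeptidase-like acyltransferase gene, rose from -0.98 and -1.01 to 1.38 and 1.38 in wild type and from -0.36 and -0.44 to 1.38 and 1.34 in the overexpression plants. The genotypes were apart before chilling and met at 3 h, with a difference of -0.61 ± 0.06 (adjusted p = 0.00142), called under every setting tried. WOX2 (AT5G59340), a homeobox gene best known from embryos, rose by 3.43 in wild type and 2.71 in the overexpression plants. Its difference was -0.72 ± 0.08 (adjusted p = 0.00383). FTM1 (AT1G43800), a stearoyl-ACP desaturase gene, fell by 1.21 in wild type and 2.06 in the overexpression plants, a difference of -0.85 ± 0.06 (adjusted p = 3.87e-04). LTP4 (AT5G59310), a lipid transfer protein gene, fell by 0.77 and 1.66, a difference of -0.89 ± 0.08 (adjusted p = 0.00123). BGLU28, a beta-glucosidase gene, and CWINV5, a cell wall invertase gene, rose less in the overexpression plants, with differences of -0.96 ± 0.14 and -0.78 ± 0.06 (adjusted p = 0.00842 and 9.01e-04). WOX2, FTM1, LTP4, BGLU28 and CWINV5 were called in all 8 single-array omissions.

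Auxin, cell wall and glucosinolate genes gave calls in both directions, and most of the lower auxin and cell wall calls were lost when 1 array other than overexpression 3 h replicate 1 was left out. Of 28 auxin genes 2 were called higher and 5 lower, and of 28 cell wall XTH and expansin genes also 2 and 5. That is 25 % of each list, against 7.58 % of all genes. In those fits the lower calls went to 0 or 1 for auxin and to 0, 1 or 2 for the cell wall list; without overexpression 3 h replicate 1 they were 3 and 5. GH3.1 (AT2G14960), of the family that joins auxin to amino acids, was at -4.89 and -4.99 in wild type at 0 h and at -4.88 and -4.78 at 3 h. It rose from -5.22 and -5.15 to -4.39 and -4.31 in the overexpression plants. The overexpression arrays were the lowest at 0 h and the highest at 3 h, with a difference of 0.73 ± 0.10 (adjusted p = 0.00660). Of 20 glucosinolate genes 1 was called higher and 4 lower (25 %). CYP79F1 (AT1G16410), which starts the aliphatic branch from methionine, rose by 1.84 in wild type and 1.45 in the overexpression plants, a difference of -0.40 ± 0.06 (adjusted p = 0.0114). The lower glucosinolate calls were 3 without wild type 0 h replicate 2 or overexpression 3 h replicate 1, 2 without either overexpression 0 h array and 1 in the other fits. With normexp the lower calls were 1 for each of these lists, with the deposited value table there were 2 for auxin, 0 for cell wall and 2 for glucosinolate genes, and with slide as a fixed block 0 for each. GH3.1 and CYP79F1 were called in all 8 omissions; the call of CYP79F1 was lost for the mean of its probes.

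Of 25 regulators upstream of the CBF genes, 1 was called higher and 1 lower (8 %, near the 7.58 % of all genes). MYB15 (AT3G23250), a repressor of CBF genes, fell from -3.67 and -3.63 to -4.11 and -4.01 in wild type. In the overexpression plants it was at -3.96 and -3.92 at 0 h and at -3.89 and -3.88 at 3 h, a response that did not pass the test. The order of the genotypes turned between the times, and the difference was 0.47 ± 0.06 (adjusted p = 0.00528), called in all 8 omissions. PIF7, a phytochrome-interacting factor, differed by -0.20 and was called in none of them (-0.21 to -0.18).

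Several of these calls rest on how the background was treated. Of the called genes named above that passed in all 8 omissions, normexp background correction ended the calls of ZAT10, GOLS2, GOLS3, MYC2, MYB15, GH3.1, IRT1, WOX2, FTM1, LTP4, BGLU28 and CWINV5. The deposited value table ended those of GOLS2, GOLS3, MYC2, MYB15, WOX2 and BGLU28. Their signs did not change. Slide as a fixed block kept the calls of PR2, PCC1, WRKY54, DLO1, PCR1, LURP1, BG3, ACD6, CRK4, DIN11, DIN2, FTM1 and scpl10 and ended those of the other genes named above. The calls of CBF1, RD29B, XERO2, CRF3, CRK36, ST2A, LDOX, ADH1 and PIF7, already lost in some or all omissions, ended with normexp, with the deposited value table and with slide as a fixed block. That of ZAT12 ended with normexp and the slide block, and that of ST2A also for the mean of its probes.

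Some leading genes were dim. For a gene not well above background on both arrays of a group, the level there is only a bound. NUDT24 (AT5G19470), a Nudix hydrolase gene, was dim in wild type at 0 h and had a measured difference of -1.92 ± 0.32 (adjusted p = 0.0137), at least 2.05-fold. It turned to 0.06 with normexp background correction, and the call was lost without wild type 3 h replicate 1 (range -2.20 to -1.65). NAC071 (AT4G17980), a NAC transcription factor gene, was dim in the overexpression plants at 0 h. Its measured difference was 2.08 ± 0.40 (adjusted p = 0.0222), at least 1.95-fold, and it was called only without either overexpression 0 h array (range 1.54 to 2.62). ATPXG2 (AT5G55240), a peroxygenase gene, was dim in the same group, with a difference of 1.38 ± 0.18 (adjusted p = 0.00559), at least 2.42-fold in the main setting. It was called in all 8 omissions but lost with normexp and the deposited value table, with a lowest value of 0.67. GOA, EC1.2 and BGLU4 were dim in 3 of the 4 groups each and were kept through the remaining group alone, so no fold is given for them. With normexp or the deposited value table NAC071, NUDT24, GOA, EC1.2 and BGLU4 were not called either, and slide as a fixed block ended the calls of GOA and BGLU4. In all, 33 of the 1566 called genes had such a group, beside 455 of the 20672 genes tested. For 14 of the called genes, GOA, EC1.2 and BGLU4 among them, the dim groups left no bound on the difference. These genes remain in the counts of called genes, and GOA, EC1.2 and BGLU4 also in the count of those at least 2-fold higher.

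Among the tissue marker lists, those of root and seed had the largest shares of calls. Leaf RNA was hybridised, yet each of the 20 root marker genes tested was well above background on an array of every group. Of these, 11 were called higher and 0 lower (55 %, against 7.58 % of all genes), with a median difference of 0.29. The largest called difference on the list was 0.54, the value given for IRT1 above. Some genes are on more than 1 list, so the root and iron counts need not be separate results. At an unadjusted p below 0.05, 15 were higher and 0 lower. Also 11 of the 20 were lower in the overexpression plants at 0 h, by a median of -0.21 over the list, and 3 were higher at 3 h. The summed level of the list, as multiples of the array's 75th percentile, was 16.5 and 15.6 in wild type at 0 h and 16.4 and 15.9 at 3 h. It was 13.9 and 13.9 in the overexpression plants at 0 h and 17.52 and 17.35 at 3 h. The overexpression arrays were thus the lowest at 0 h and the highest at 3 h, without overlap with wild type. PLT2 (AT1G51190), a regulator of the root stem cell niche, differed by 0.47 ± 0.09 (adjusted p = 0.0265) and was called without overexpression 3 h replicate 1 or 2 alone (range 0.36 to 0.57). PRP3 (AT3G62680), a root hair wall protein, differed by 0.46 ± 0.08 (adjusted p = 0.0164) and lost its call without wild type 0 h replicate 1, wild type 3 h replicate 2 or overexpression 3 h replicate 2 (range 0.40 to 0.52). Both also lost their calls with normexp, the deposited value table and slide as a fixed block. The list count was 8 without wild type 0 h replicate 2 and 6 without overexpression 3 h replicate 1. It was 4 without wild type 3 h replicate 1, either overexpression 0 h array or overexpression 3 h replicate 2, and 3 without wild type 0 h replicate 1 or wild type 3 h replicate 2. It was 2 with normexp, 3 with the deposited value table, 6 with median scaling, 5 without the filter on dim probes and 0 with slide as a fixed block.

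Seed storage and late embryogenesis genes followed. Of 12 tested, 5 were called higher and 0 lower (41.7 %, against 7.58 % of all genes), with a median difference of 0.66. At an unadjusted p below 0.05, 9 were higher and 0 lower. CRU3 (AT4G28520), a cruciferin storage protein, was at -2.06 and -2.17 in wild type at 0 h and at -2.40 and -2.44 at 3 h. The overexpression levels were -4.29 and -4.22 at 0 h and -2.56 and -2.52 at 3 h. Only the overexpression arrays at 0 h stood apart, and the difference was 2.02 ± 0.14 (adjusted p = 4.31e-04). CRA1 (AT5G44120), another cruciferin, differed by 1.33 ± 0.07 (adjusted p = 1.88e-04), but its probes ran from 0.33 to 1.37 and the call was lost for the mean of them. M17 (AT2G41260), a late embryogenesis abundant protein gene, differed by 0.75 ± 0.11 (adjusted p = 0.00821). These 3 were called in all 8 omissions, and CRU3 and M17 lost their calls with slide as a fixed block. The summed level of the list was 1.56 and 1.54 in wild type at 0 h and 1.93 and 1.92 at 3 h, and 0.78 and 0.74 in the overexpression plants at 0 h and 1.83 and 1.86 at 3 h. Again the overexpression arrays at 0 h were the low ones. The list had 3 calls with normexp or the deposited value table and 2 with slide as a fixed block.

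Xylem and phloem markers gave 0 calls of 16 tested (limma; also 0 at an unadjusted p below 0.05), with summed levels of 22.9 to 24.1 at 0 h and 22.2 to 23.55 at 3 h over both genotypes. Of the photosynthesis genes 2 of 28 were called lower (7.14 %), of the epidermal markers 2 of 21 (9.52 %). Of the meristem and flower markers it was 1 of 17 (5.88 %). These shares are near the 7.58 % called of all genes. At an unadjusted p below 0.05 these lists had 5, 6 and 6 members lower and 0 higher, where 12.3 % of all genes were lower. Their median differences were -0.06, -0.10 and -0.21. The summed level of the salicylate list was 22.2 and 22.5 in wild type at 0 h and 16.7 and 16.5 at 3 h, and 13.9 and 14.4 in the overexpression plants at 0 h and 16.3 and 15.9 at 3 h. The root, seed and salicylate sums were all lowest in the overexpression plants at 0 h. Whether any root or seed material was in the samples, or had a part in the difference of responses, was not tested.

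**Figure D4:**
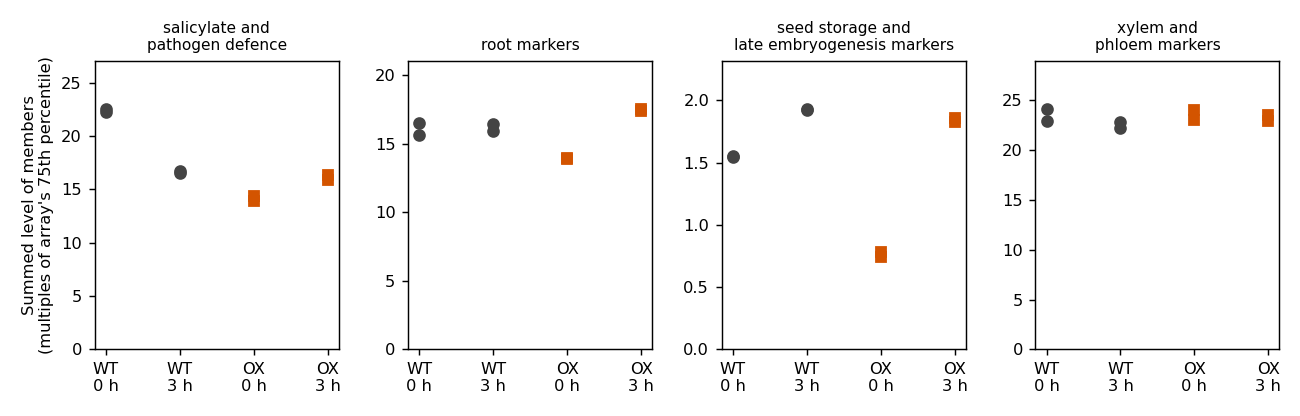
Summed level of the tested members of 4 gene lists on each array (multiples of the array's 75th percentile, linear axis from 0); circles are wild type (WT), squares RDM4 overexpression (OX), 2 arrays per group. The salicylate, root and seed sums are lowest in the overexpression plants at 0 h, and the xylem and phloem sum is between 22.2 and 24.1 on all 8 arrays.

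The machineries in which RDM4 takes part were among the lists without a call. RNA polymerase II and elongation genes gave 0 calls of 24 and RNA-directed DNA methylation genes 0 of 30, with medians of -0.06 and 0.05 (limma). At an unadjusted p below 0.05 these counts were 6 and 3, against 26.9 % of all genes. Their differences ran from -0.68 to 0.36 and from -0.15 to 0.44. B-box and light signalling genes, cytokinin response genes and DNA replication genes also gave 0 calls, of 26, 25 and 24 tested (6, 8 and 5 at an unadjusted p below 0.05, against 26.9 % of all genes). Of the 23 clock genes, TOC1 and BOA were called higher (8.7 %, near the 7.58 % of all genes), with differences of 0.36 and 0.25. TOC1 lost its call without wild type 3 h replicate 1, overexpression 0 h replicate 2 or overexpression 3 h replicate 2 (0.31 to 0.40). BOA lost it without wild type 0 h replicate 1, either wild type 3 h array or overexpression 0 h replicate 2 (0.23 to 0.28). Both were lost with slide as a fixed block, and BOA also with normexp and the deposited value table. Over all 39 lists 820 genes were tested and 140 called, where 7.58 % of all 20672 genes were called.

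**Figure D5:**
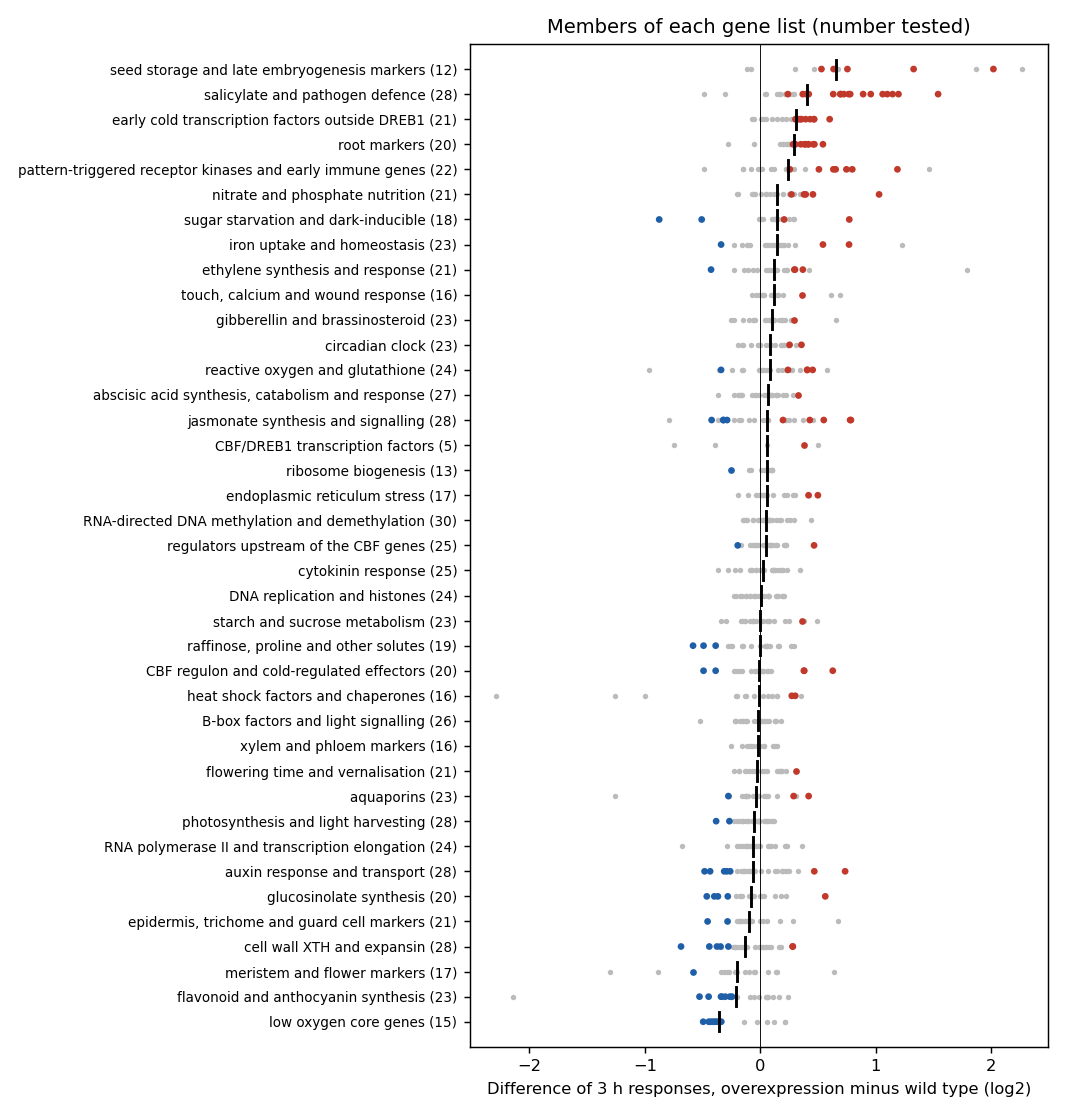
Difference of the 3 h responses (log2, overexpression minus wild type) for every tested member of 39 gene lists, with the number tested in brackets; red and blue points are called higher and lower, grey points not called, and black bars are list medians. Medians run from -0.36 for low oxygen genes to 0.66 for seed storage genes.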

How the data were processed

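Arrays were 1-colour Agilent arrays labelled with Cy3 and read with Feature Extraction 10.7.1.1, per the file headers. The authors deposited each array's processed intensity, with the scanner's background subtraction already applied. The log2 of this deposited intensity was taken here, minus each array's 75th percentile over non-control spots. A separate deposited value table, used as an alternative, equals the median signal, without background subtraction, in 11 of its 12 columns. The column of overexpression 48 h replicate 2 does not, what it holds is unknown, and it enters that alternative only through the variance. Of 43603 probes, 32923 were kept, namely those well above background in both replicates of any of the 4 groups; 28680 of these matched a locus. Each of the 20672 genes was represented by its brightest kept probe. limma 3.58.1 in R 4.3.3 fitted 6 group means to 12 arrays, with 2 arrays per group and Benjamini-Hochberg adjustment over all genes. The number of arrays limits the precision.

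Genes named by rule are RDM4, the CBF and COR genes, the 15 largest called differences each way among genes with a symbol, and up to 4 called members of each list. The comparison, the lists and this rule were chosen with earlier results of these data known. Outside the rule, ICS1, EDS1, PAD4, NPR1, FLS2, BAK1, BIK1, CHS, CHI and F3H were named by their role, with values known. The main fit did not pair samples by replicate number. Same-numbered arrays correlated at r = -0.01 to 0.17 in their deviations from group means, with the highest value for the wild type groups. Same-numbered wild type arrays at 0 h and 3 h share a slide. These values do not settle whether the samples were paired. Simulated data were used to check the fit. Alternatives were other background corrections, scalings, filters, blocks and variance priors, and leaving out each array. A planned promoter search was not run, as no promoter sequences were used here.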

Additional observations from a re-analysis of the deposited data

Results flagged for a closer look

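The difference of responses is itself a test between genotypes, so each gene called by it is a result that differs between groups, 1566 genes in all. Among the 15 largest measured positive differences (log2) were PCR1 at 2.19, CRU3 at 2.02, LURP1 at 1.85, BG3 at 1.64, PAP14 at 1.64 and PCC1 at 1.54. ACD6 stood at 1.42, ATPXG2 at 1.38, CRA1 at 1.33, PNP-A at 1.29 and BGL2 (PR2) at 1.196. The measured values of GOA (3.89), EC1.2 (3.77) and BGLU4 (1.61) rest on 3 of 4 groups not well above background, so they give no size. They were as low as 1.04, 1.33 and 0.50 in other settings. NAC071, at 2.08, was not well above background in the overexpression plants at 0 h.

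On the negative side NUDT24 stood at -1.92, BGLU28 at -0.96, MLO9 at -0.90, LTP4 at -0.89 and DIN11 at -0.88. D6PK followed at -0.87, FTM1 at -0.85, CWINV5 at -0.78, JAL23 at -0.77 and WOX2 at -0.72. EXPA4 had -0.69, SAUR27 -0.68, YCF37 -0.67, CRK30 -0.65 and scpl10 -0.61. Of these 30 genes, PAP14 and MLO9 were called in 0 of the 8 fits that left out 1 array, D6PK and EXPA4 in 1, BGLU4, NAC071 and SAUR27 in 2, CRK30 in 5, and EC1.2 and NUDT24 in 7. The other 20 were called in all 8.

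Probes that matched no locus are outside the gene-level test. Tested with all kept probes, 71 of them were higher and 80 lower, of 4243 such probes, or 3.56 % against 4.66 % of all probes.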

How the results depend on the processing

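No gene called under both the main and another setting changed sign. Genes called for the difference of responses numbered 342 with normexp (256 higher, 86 lower), 472 with the deposited value table (357 and 115), 875 without the filter on dim probes (614 and 261) and 160 with slide as a fixed block (113 and 47). The lower calls numbered 931 with median scaling, 360 with the 8 arrays alone and 843 with a trended prior variance. The share of calls that were higher was 74.9 % with normexp and 75.6 % with the value table, against 64.3 %. Median scaling moved the median of all genes by -0.05. Leaving out 1 array gave totals of 547 to 1460, with 410 to 876 higher and 110 to 584 lower. It gave 12550 to 14055 genes for the wild type response, 12990 to 14590 for the overexpression response, 1164 to 2374 for the genotypes at 0 h and 30 to 806 at 3 h. Genotype differences at 0 h numbered 2707, and 1261 with normexp, 1435 with the value table and 108 with slide fixed. At 3 h they numbered 1047, and 17 with normexp, 279 without the filter, 49 with the value table, 486 with the 8 arrays alone, 47 with slide fixed, 1689 with a trended prior and 2111 with array weights. NUDT24 turned to 0.058 and MLO9 to 0.161 with normexp. With a block that pairs samples by replicate number, 1763 genes were called. The causes were not tested, beyond the 2 residual degrees of freedom that the slide block leaves. Normexp used median signals with an offset of 50. The list counts by setting, the 48 h follow-up and the test of probes without a locus were added after seeing the data. In simulated data a 1.25-fold change was found for 22.4 % of changed genes and a 1.5-fold change for 74.4 %. For 2-fold and 4-fold changes the shares were 92.4 % and 96 %, and 3.39 % of all simulated calls were false. The simulated arrays had independent noise at the fitted variances and no slide effect. These shares therefore check the fit alone and do not measure the false calls among the real genes.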
